A study of Mus musculus with 9 samples.

Results

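Egr1, Egr2, Egr3 and Egr4, the genes of the early growth response (EGR) transcription factors, and Nab1 and Nab2, the genes of their NGFI-A binding (NAB) corepressors, were followed through the striatum of mice lacking cGAS or STING. The 6 genes were taken by symbol out of the 54532 Ensembl gene IDs of the count tables, and all 6 were among the 17821 genes that passed the filter on low counts. The family was chosen by its levels in STING knockout against wild type, since earlier results of these data, in which Egr1, Egr2 and Egr3 stood higher in STING knockout, were known, so the values of that comparison are given as a description, without a p-value for any of the 6 genes.

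The series holds 9 libraries of polyadenylated striatal RNA from mice on a C57BL/6J background: 3 carrying a CRISPR-Cas9 deficiency of Cgas (cGAS KO), 3 carrying one of Sting (STING KO) and 3 wild-type (WT). Ischemic stroke is named in the series' own text as the injury, shared by all 3 groups. The sources used here give no age, sex, time after the stroke, edited exon or pooling of animals. Nothing in the labels ties replicates to separate animals, so p-values cover only library-to-library spread, which may be technical.

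EGR proteins bind GC-rich DNA through 3 zinc fingers, and their genes are immediate early genes: synaptic activity, growth factors and injury switch them on within minutes through the MAP kinase pathway, the serum response factor SRF and the cAMP-responsive factor CREB. Egr1 is expressed at a resting level in forebrain neurons and follows their activity, Egr2 is best known for hindbrain patterning and Schwann cell myelination, and Egr3 and Egr4 are expressed in neurons. NAB1 and NAB2 dock on EGR1, EGR2 and EGR3 and hold them back, in part by bringing in the chromatin remodeller CHD4 of the NuRD complex. NAB2 is itself inducible by EGR proteins, so the pair forms a feedback loop, while NAB1 is the more constant partner.

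The promoters of Egr2 and Egr4 are shown because these were the members with the highest fold differences between groups. Each stretch is the 250 bases before a RefSeq start site (GRCm38.p6), 5′ to 3′ on the gene's strand, with no annotated exon of a member in it. The sequence of Egr2 is chr10:67537619-67537868 on the plus strand, and that of Egr4 is chr6:85513590-85513839 on the minus strand. Capitals mark CArG boxes (CC, then 6 letters of A or T, then GG, the letters SRF binds) and CRE half-sites (TGACG, on either strand, the core of the CREB site).
Egr2: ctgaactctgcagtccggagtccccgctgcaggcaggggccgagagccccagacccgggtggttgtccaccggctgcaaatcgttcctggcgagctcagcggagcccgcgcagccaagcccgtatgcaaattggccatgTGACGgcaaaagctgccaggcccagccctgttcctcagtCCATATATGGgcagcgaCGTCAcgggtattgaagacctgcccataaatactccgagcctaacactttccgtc
Egr4: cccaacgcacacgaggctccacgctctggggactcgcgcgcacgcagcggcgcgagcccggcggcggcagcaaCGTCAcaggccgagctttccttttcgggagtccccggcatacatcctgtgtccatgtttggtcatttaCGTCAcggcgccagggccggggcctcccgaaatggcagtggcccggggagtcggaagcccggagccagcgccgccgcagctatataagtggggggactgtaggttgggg
The Egr2 stretch held 1 CArG box, CCATATATGG, beginning 72 bases before the start site, with CRE half-sites beginning 111 and 55 bases before it. The Egr4 stretch held 2 CRE half-sites, beginning 177 and 109 bases before the start site, and no CArG box of that spelling. RefSeq gives Egr2 5 start sites. The window of the one at 67535499 held neither motif, that of the one at 67537566 held the CArG box CCTTTTTTGG and no half-site, and the other 3 overlap and hold the same matches. Of 32851 RefSeq windows of the same 250 bases, 1.47% held a CArG box and 17.8% a CRE half-site. The whole CRE, TGACGTCA, was in 1.55% of windows and in none of those of Egr2, Egr4, Nab1 or Nab2. EGR sites were searched on both strands as GCGTGGGCG (0.536% of windows) and GCGGGGGCG (2.57%). The Nab1 window, at 80.8% G and C, held 2 matches of the first and 1 of the second, and those of Egr2, Egr4 and Nab2 held neither. Of the 250 bases of the Nab1 window, 231 lie in annotated exons of Nab1 itself. RefSeq windows were matched for these 4 of the 6 genes. A match describes letters and shows no binding.

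Library totals ranged from 14129021 to 21286775 counts, and a floor of 3 counts was 0.141 to 0.212 CPM (counts scaled to library size). The lowest count of any member in any library was 61, for Egr2, so all 6 genes were counted well above that floor. One library of each group (WT replicate 3, and replicate 2 of both cGAS KO and STING KO) stood apart, with 2280 to 4723 genes at 1 to 9 counts against 7096 to 7927 in the other 6. They are called low-complexity libraries below, and member results are given with and without them. Cgas was at 0.262 to 1.10 CPM in cGAS KO and 1.40 to 3.18 CPM in WT. Sting1 (listed as Tmem173) was at 1.05 to 2.18 CPM in STING KO and 1.34 to 4.06 CPM in WT, with overlapping ranges, so transcript of both targeted genes was counted in their knockouts. The edited stretch is not known here, and these levels do not check the edit. The striatum label was checked on 10 spiny neuron markers, whose summed level was 3319 CPM in WT replicate 3 and 5905 to 8227 CPM in the other 8 libraries.

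Egr1 was the most abundant member (chromosome 18, 34859823 to 34864984, plus strand, GRCm38; ENSMUSG00000038418). Levels are TMM-normalized CPM. Egr1 was at 326, 244 and 178 CPM in WT replicates 1 to 3, at 316, 328 and 408 CPM in cGAS KO, and at 544, 294 and 585 CPM in STING KO. STING KO replicates 1 and 3 lay above all other libraries, while STING KO replicate 2 lay inside the WT range. Over 3 libraries each, the means were 250 ± 74.2 CPM (SD, n = 3) in WT, 351 ± 50.1 CPM (SD, n = 3) in cGAS KO and 474 ± 157 CPM (SD, n = 3) in STING KO.

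Egr2 had the highest fold difference of the 6 genes (chromosome 10, 67535475 to 67542188, plus strand; ENSMUSG00000037868). It was at 11.8, 5.05 and 4.32 CPM in the WT libraries, at 13.5, 11.8 and 26.5 CPM in cGAS KO, and at 45.9, 11.3 and 39.4 CPM in STING KO. WT replicates 2 and 3 were the lowest libraries, and WT replicate 1 reached the lowest library of each knockout group. These values rest on 61 to 262 counts in WT and 162 to 738 counts in STING KO. The relative spread was wide in every group, with a coefficient of variation of 58.7% in WT, 46.5% in cGAS KO and 57.1% in STING KO.

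Egr3 was the steadiest of the EGR genes (chromosome 14, 70077203 to 70082614, plus strand; ENSMUSG00000033730). It was at 150, 158 and 163 CPM in WT, at 167, 171 and 197 CPM in cGAS KO, and at 267, 197 and 246 CPM in STING KO. All 6 knockout libraries were above all 3 WT libraries for Egr3 and for no other member, where 1.06% of the genes tested showed this. The coefficient of variation was 4.16% in WT, 9.02% in cGAS KO and 15.2% in STING KO. Egr3 also kept its level in the low-complexity library of WT, which was the highest of the 3 WT libraries.

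Egr4, the shortest of the 4 EGR genes (chromosome 6, 85511121 to 85513589, minus strand; ENSMUSG00000071341), was at 49.2, 29.2 and 9.41 CPM in WT, at 63.2, 29.0 and 55.9 CPM in cGAS KO, and at 129, 26.8 and 120 CPM in STING KO. STING KO replicates 1 and 3 were above every other library, and STING KO replicate 2 was lower than WT replicates 1 and 2. The mean over STING KO, 92.0 ± 56.6 CPM (SD, n = 3), therefore describes no single library of that group.

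The corepressor genes differed from one another. Nab1 (chromosome 1, 52457294 to 52500679, minus strand; ENSMUSG00000002881) was at 31.7, 29.9 and 33.1 CPM in WT, at 31.1, 38.2 and 30.2 CPM in cGAS KO, and at 28.7, 40.1 and 26.6 CPM in STING KO. The groups overlapped, and the whole range over 9 libraries was 26.6 to 40.1 CPM. Nab2 (chromosome 10, 127660918 to 127668568, minus strand; ENSMUSG00000025402) was at 28.4, 18.8 and 6.30 CPM in WT, at 36.7, 13.6 and 18.4 CPM in cGAS KO, and at 41.2, 8.57 and 37.7 CPM in STING KO. The lowest library of each group was its low-complexity one, cGAS KO replicate 3 was also near the low end of its group, and all 3 groups overlapped.

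The count of Nab2 carries an annotation limit. Of its 2941 exon bases, 1050 (35.7%) are shared with the antisense transcript Gm16229, 151 with Nemp1 and 40 with Stat6, all on the opposite strand. Gm16229 was at 0 counts in all 9 libraries, Nemp1 at 142 to 232 counts and Stat6, a cytokine-activated transcription factor, at 86 to 324 counts. The sources used here do not say whether strand was used in counting, so reads in the shared stretches may be missing from Nab2 or assigned to it. The annotation showed no overlapping gene for the other 5 members.

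**Figure D1:**
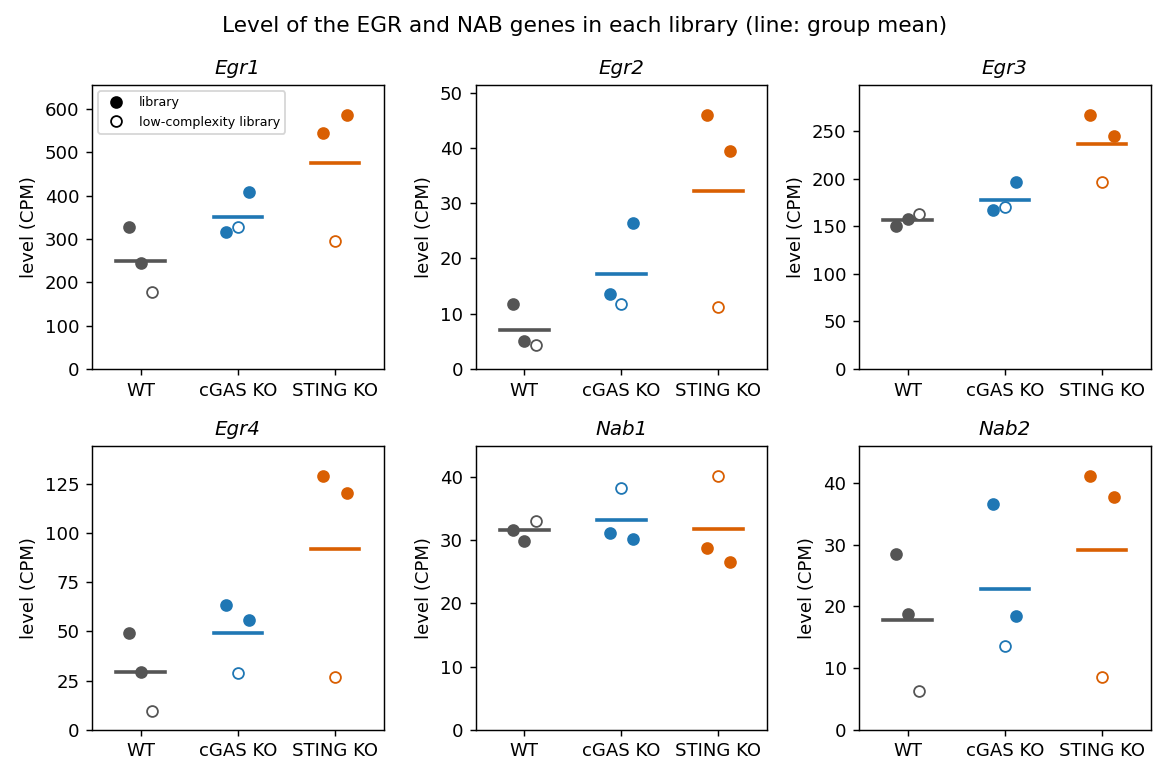
Level of each of the 6 genes in CPM (vertical axis, from 0) in the WT, cGAS KO and STING KO libraries; points are libraries, open points the low-complexity ones, and lines group means. STING KO replicates 1 and 3 stand highest for Egr1 to Egr4 and Nab2, at 544 and 585 CPM for Egr1, while Nab1 stays between 26.6 and 40.1 CPM in all groups.

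The group means of Egr1, Egr2, Egr3, Egr4 and Nab2 were in the order WT, cGAS KO, STING KO, 5 of the 6 members, and the same 5 kept that order without the low-complexity libraries. Of all genes tested, 15.8% had their means in that order over 9 libraries and 18.9% over 6. Nab1 did not follow it, with means of 31.6, 33.2 and 31.8 CPM. The order rests in part on the STING KO and WT levels that entered the choice of the genes. Nothing is therefore read from the count of 5 members. The comparison with WT shares its 3 libraries between both knockouts, and bulk RNA cannot tell fewer cells of a type from less RNA per cell.

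The low-complexity library sat at the bottom of its group for Egr2, Egr4 and Nab2 in all 3 groups, and at the top for Nab1. Egr4 in that library was at 24.0% of the mean of the other 2 in WT, at 48.7% in cGAS KO and at 21.5% in STING KO. Nab2 was at 26.6%, 49.3% and 21.7%. Nab1 was at 108%, 125% and 145%, and Egr3 at 106%, 93.7% and 76.7%. Among all genes tested, 23.7% were lowest and 20.6% highest in the low-complexity library of each group, so this behaviour is shared by many genes. What part low complexity has in these levels was not tested.

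**Figure D2:**
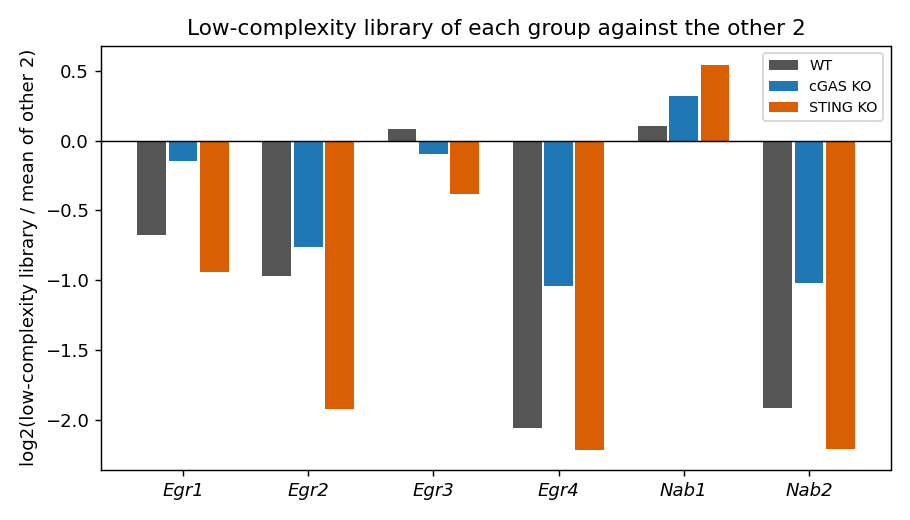
log2 ratio of the low-complexity library to the mean CPM of the other 2 libraries of its group (vertical axis), for each gene and group (bars). Egr4 and Nab2 are lower in each of the 3 groups, down to 21.5% of the other 2 for Egr4 in STING KO, while Nab1 is higher in each.

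To compare levels between genes, CPM were divided by the length of the merged exons in kb. By CPM per kb, Egr1 was the highest member in 9 of 9 libraries and Egr3 the next in 8 of 9. In WT the mean levels were 55.7 ± 16.5 for Egr1, 35.7 ± 1.48 for Egr3, 13.6 ± 9.26 for Egr4, 7.70 ± 0.39 for Nab1, 6.07 ± 3.78 for Nab2 and 2.08 ± 1.22 for Egr2 (CPM per kb, SD, n = 3). Egr1 and Egr3 did not overlap there, whereas the neighbours Egr4, Nab1 and Nab2 overlapped, as did Nab2 and Egr2. In STING KO the same quantity was 106 ± 35.1 for Egr1, 53.6 ± 8.18 for Egr3 and 42.8 ± 26.4 for Egr4, and the last 2 overlapped. In STING KO replicate 3 Egr4 passed Egr3, at 100.4% of its level, and in STING KO replicate 1 it stood at 99.2%. STING KO replicate 2 was at 28.0%, inside the range of 11.8% to 67.1% in WT and below that of 34.9% to 77.4% in cGAS KO.

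In the mixture of EGR transcripts, Egr1 made up 47.5% to 56.8% of the summed EGR level per kb in all 9 libraries. The share of Egr2 was 1.41% to 2.61% in WT, 2.69% to 4.60% in cGAS KO and 2.64% to 5.28% in STING KO, so each knockout library had a larger Egr2 share than each WT library. Summed EGR over summed NAB level per kb was 7.66, 7.69 and 8.07 in WT, 7.08, 9.24 and 12.4 in cGAS KO, and 12.2, 9.92 and 13.1 in STING KO. The ratio was above the WT range in all 3 STING KO libraries and in 2 cGAS KO libraries. Nab2 over Nab1 was 0.878 to 1.25 in WT replicates 2 and 1 and 2.00 and 1.98 in STING KO replicates 1 and 3. For cGAS KO replicate 1 the ratio was 1.64 and for replicate 3 0.850, with 0.265, 0.496 and 0.298 in the low-complexity libraries of WT, cGAS KO and STING KO. These shares and ratios are formed from the values that were known when the genes were chosen, and no test is given.

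**Figure D3:**
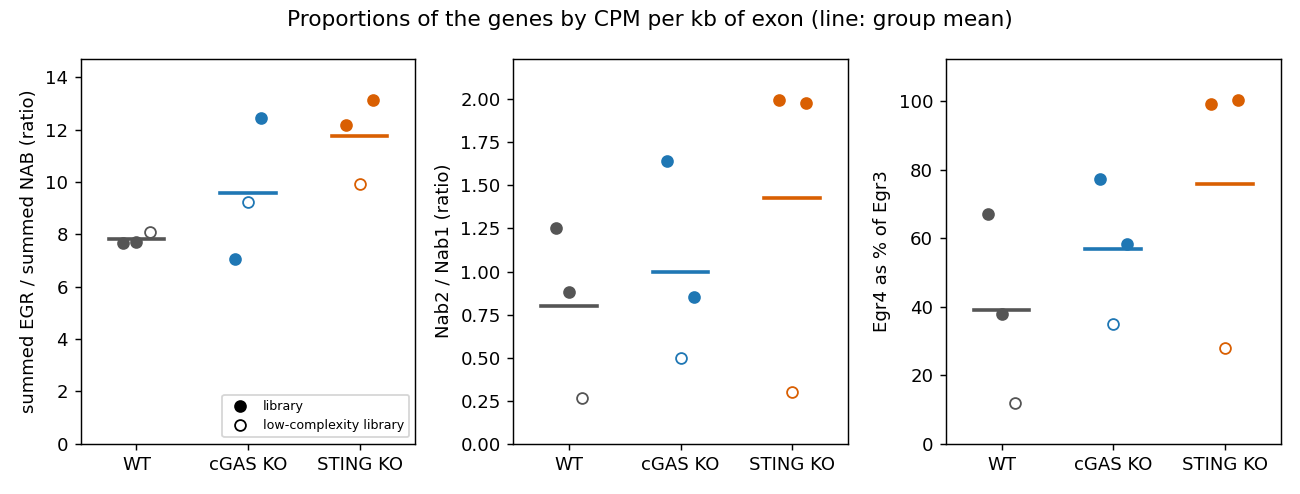
Ratios formed from CPM per kb in each library (points; open points are the low-complexity libraries; lines are group means): summed EGR over summed NAB genes, Nab2 over Nab1, and Egr4 as a percentage of Egr3. The EGR to NAB ratio is 7.66 to 8.07 in WT and 9.92 to 13.1 in STING KO, while the other 2 ratios are lowest in the low-complexity library of each group.

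STING KO against WT gave the widest differences for the EGR genes. The fitted log2 fold change (edgeR, 9 libraries) was 2.18 (SE 0.59) for Egr2, 1.65 (SE 0.66) for Egr4, 0.93 (SE 0.30) for Egr1 and 0.59 (SE 0.17) for Egr3. Among the corepressors it was 0.70 (SE 0.66) for Nab2 and 0.011 (SE 0.20) for Nab1. All 6 were above 0, as were 49.4% of the genes tested. Only Egr3 had all 3 STING KO libraries above all 3 WT libraries, which 3.4% of the genes tested showed, and 0 members had them all below, which 3.67% showed. Because these values entered the choice of the genes, nothing is read from those counts. edgeR called 0% of the 17821 genes in this comparison at an adjusted p of 0.05, and hence 0 of the 6 members. At an unadjusted p under 0.05 there were 291 genes, and limma-voom called 0. DESeq2 without a count filter, over 31889 genes, called 10, none of them a member.

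Without the low-complexity libraries, the log2 fold changes in STING KO against WT had smaller errors: 2.33 (SE 0.41) for Egr2, 1.66 (SE 0.22) for Egr4, 0.98 (SE 0.19) for Egr1, 0.73 (SE 0.14) for Egr3 and 0.73 (SE 0.31) for Nab2. These 5 genes had both remaining STING KO libraries above both WT libraries, as did 24.3% of the genes tested. Nab1 turned to -0.16 (SE 0.14), with both STING KO libraries below both WT libraries, as in 23.2% of the genes tested. edgeR called 4 of 17657 genes over these 6 libraries (0.0227%), none a member.

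In cGAS KO against WT, no member passed the test, and each estimate was less than that of STING KO except for Nab1. Egr2 had a log2 fold change of 1.28 (SE 0.57), and Egr4 one of 0.75 (SE 0.65). Egr1 was at 0.49 (SE 0.30), Nab2 at 0.35 (SE 0.66), Egr3 at 0.18 (SE 0.17) and Nab1 at 0.071 (SE 0.20). All 6 were above 0, beside 48.5% of the genes tested. The 3 WT libraries also entered the choice of the genes, so this is no independent test. Nothing is read from the counts of members in this comparison. For all 6 the edgeR adjusted p was 0.9999 over the 17821 genes tested. The 3 cGAS KO libraries were above the 3 WT libraries for Egr3 alone, as for 4% of genes tested, and 4% had them all below, with 0 members. edgeR called 0% of genes, 361 had an unadjusted p under 0.05, limma-voom called 0 and DESeq2 without a count filter 1. Over 6 libraries the values were 1.23 (SE 0.41) for Egr2, 0.60 (SE 0.22) for Egr4, 0.35 (SE 0.19) for Egr1 and 0.24 (SE 0.14) for Egr3, each with an edgeR adjusted p = 0.971. Egr2, Egr3 and Egr4 then had both cGAS KO libraries above both WT libraries, as in 14.5% of the genes tested.

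The direct comparison of the knockouts asks whether STING KO stood above cGAS KO. Its log2 fold changes were 0.90 (SE 0.56) for Egr2, 0.90 (SE 0.65) for Egr4, 0.44 (SE 0.30) for Egr1, 0.41 (SE 0.17) for Egr3, 0.35 (SE 0.65) for Nab2 and -0.060 (SE 0.20) for Nab1. Of the members 5 of 6 were above 0, beside 51.1% of the genes tested. For 0 members were the groups separated, where 3.63% of genes tested had STING KO wholly above cGAS KO and 3.72% wholly below, and the edgeR adjusted p was 1 for all 6. The STING KO libraries are the ones already known to hold high EGR levels, so this is no independent test. edgeR called 0% of genes, 258 had an unadjusted p under 0.05, limma-voom called 0 and DESeq2 without a count filter 8. Over 6 libraries Egr4 was at 1.06 (SE 0.22), Egr2 at 1.09 (SE 0.39), Egr1 at 0.64 (SE 0.19) and Egr3 at 0.49 (SE 0.14), each with an edgeR adjusted p = 0.926. edgeR called 3 genes (0.017%) in that fit, none a member. For the EGR genes and Nab2, both remaining STING KO libraries were above both of cGAS KO, as in 16.6% of genes tested.

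**Figure D4:**
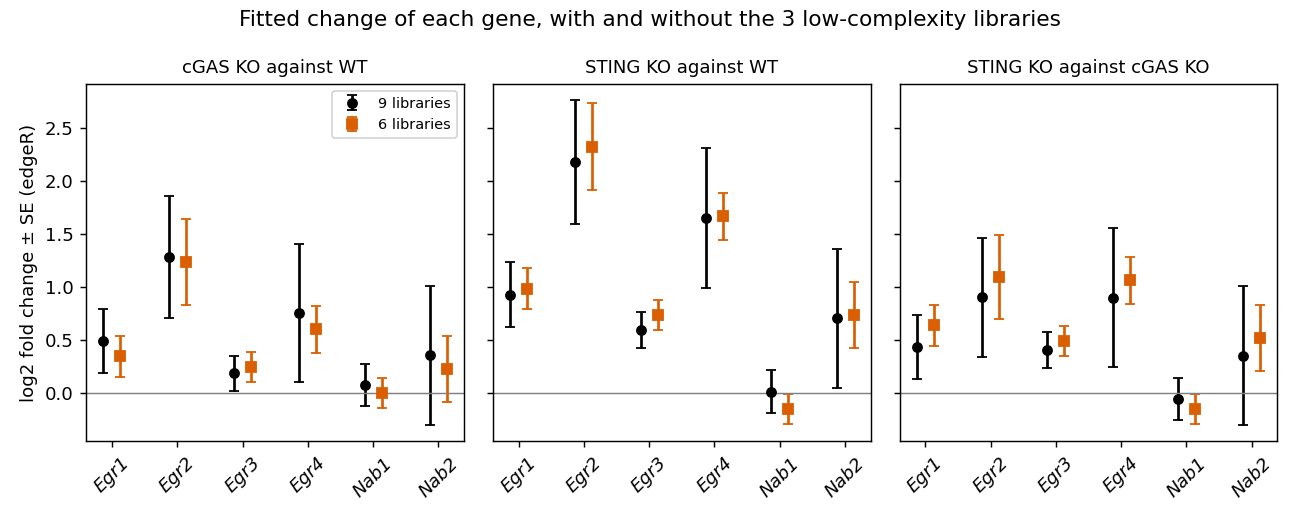
Fitted log2 fold change (vertical axis) with its SE for each gene in the 3 comparisons, over 9 libraries (circles) and over the 6 without low complexity (squares). In STING KO against WT the EGR genes lie between 0.59 and 2.18 over 9 libraries, and Nab1 lies near 0 in each comparison.

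Genes of the route that switches on Egr transcription were divided in direction over 9 libraries. They cover the neurotrophin receptor, RAS and RAF proteins, MAP kinases, SRF with its partners and CREB. Of 29 genes, all tested, 12 were positive and 17 negative in the log2 ratio of STING KO to WT, with a median of -0.043 beside -0.0044 over all genes, and 0 were called in either direction. In cGAS KO against WT 15 were positive and 14 negative, with a median of 0.041, and 0 were called. Over 6 libraries 13 were positive and 16 negative in STING KO against WT. In cGAS KO against WT 21 were then positive and 8 negative, with a median of 0.12, and 0 were called in either comparison. Map2k1, a kinase of the cascade, was at 200 ± 41.6 CPM in WT, 211 ± 50.5 CPM in cGAS KO and 221 ± 59.2 CPM in STING KO (SD, n = 3). Srf, named after its values were seen, was at 45.2 to 55.2 CPM in WT, 69.5 to 72.1 CPM in cGAS KO and 66.9 to 83.8 CPM in STING KO, so both knockouts lay above the WT range. Its log2 fold change was 0.58 (SE 0.16) in STING KO and 0.46 (SE 0.16) in cGAS KO, with an edgeR adjusted p = 0.9999 for each.

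Downstream, 21 of 22 genes reported elsewhere to be EGR targets were tested, and Fasl did not pass the filter. In STING KO against WT 14 were positive and 7 negative with a median of 0.18 (log2), and in cGAS KO against WT 11 were positive and 10 negative with a median of 0.013. None was called over 9 libraries. Over 6 libraries 17 were positive and 4 negative in STING KO against WT (median 0.24). In cGAS KO against WT 12 were then positive and 9 negative (median 0.065). In STING KO against cGAS KO 15 were positive and 6 negative over 9 libraries, and 16 and 5 over 6. Arc, a synaptic protein of active neurons and an EGR target, was called over 6 libraries in STING KO against WT (log2 fold change 1.89, edgeR adjusted p = 0.0283) and against cGAS KO (1.90, edgeR adjusted p = 0.0327). Syn1, a synaptic vesicle protein, was at 423 ± 126 CPM in WT, 378 ± 62.4 CPM in cGAS KO and 396 ± 34.9 CPM in STING KO, and Cdk5r1, the p35 activator of CDK5, was at 310 ± 12.6, 316 ± 28.0 and 332 ± 26.9 CPM (SD, n = 3). Both ranges overlapped between the groups.

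The NuRD complex, through which NAB proteins repress, had 8 of 14 genes positive and 6 negative in both knockouts against WT, with medians of 0.10 in STING KO and 0.049 in cGAS KO and 0 calls. Chd3 was at 521 ± 76.0 CPM in WT, 660 ± 71.0 CPM in cGAS KO and 575 ± 63.2 CPM in STING KO. Chd4, the subunit that NAB2 contacts, was at 299 ± 15.2, 339 ± 61.9 and 286 ± 19.1 CPM (SD, n = 3).

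Of 18 other immediate early genes, 0 were called over 9 libraries in any comparison. Over 6 libraries Arc and Junb were called in STING KO against WT, each with an edgeR adjusted p = 0.0283. Over 9 libraries, 17 of the 18, Arc among them again, were positive in STING KO against WT, with a median log2 fold change of 0.93. In cGAS KO against WT 11 were positive, with a median of 0.11. The 4 EGR genes, chosen with their STING KO levels known, had medians of 1.29 and 0.62. Over 6 libraries all 18 were positive in STING KO against WT (median 1.30) and 11 in cGAS KO against WT (median 0.035). The EGR medians were then 1.32 and 0.47. The members of the list were not alike in cGAS KO. The mean of Fos was 6.72 CPM for WT and 6.78 for cGAS KO, and that of Arc 84.4 and 83.4 CPM. For Egr2 the same means were 7.06 and 17.3 CPM, and Junb, named after its values were seen, had 28.9 and 54.3 CPM. Fosl2, also so named, had 22.7 and 40.4 CPM. Whether EGR and other immediate early genes differ in this was not tested. Nr4a1, an orphan nuclear receptor, was at 74.4 ± 20.9 CPM in WT, 97.4 ± 19.2 CPM in cGAS KO and 205 ± 92.4 CPM in STING KO (SD, n = 3). STING KO replicate 2 had the lowest summed level of the 18 genes in its group, at 960 CPM against 1671 and 1454 CPM, and the WT libraries lay at 721 to 760 CPM.

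Genes with the most similar profile were taken as the 3 with the highest Pearson r of log2 CPM over the 9 libraries, a description that also reflects shared library complexity. For Egr1 they were Egr2 (r = 0.974), the pseudogene Rps13-ps1 (0.951, at a mean of only 0.552 CPM) and Junb (0.948), and for Egr2 they were Egr1, Gm9774 (0.940, at 0.478 CPM) and Slc25a25 (0.938). For Egr3 they were Nr4a1 (0.921), Fos (0.921) and Arc (0.906). Egr4 was most like Zfp36l2 (0.984), Klf2 (0.976) and Ldb1 (0.970), and Nab2 was most like Tada3 (0.996), Pfdn6 (0.994) and Mogs (0.994). Nab1 was most like Slain2 (0.965), 4931415C17Rik (0.964) and Clip4 (0.959). Between members, r was 0.686 to 0.974 among the 4 EGR genes, 0.919 for Egr4 with Nab2, and -0.718 for Nab1 with Nab2. Over the 6 other libraries these were 0.892 to 0.974, 0.808 and -0.373.

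Tissue composition differed between libraries. EGR genes are also strong in cortical neurons, and 8 cortical glutamatergic markers summed to 111, 483 and 1245 CPM in WT replicates 1 to 3, to 390, 565 and 145 CPM in cGAS KO and to 679, 337 and 531 CPM in STING KO. In WT, Egr1 ran the other way (326, 244 and 178 CPM), and in STING KO the replicate with the lowest sum, replicate 2, also had the lowest Egr1. WT replicate 3 and STING KO replicate 2 are low-complexity libraries. In cGAS KO the lowest sum, in replicate 3, came with the highest Egr1 (408 CPM). Over 6 libraries all 8 cortical markers had a higher estimate in STING KO than in WT, the direction of the EGR genes. Their median log2 fold change was 0.71, and over 9 libraries 1 of 8 was higher. In cGAS KO against WT, where the EGR genes were also above 0, 0 of 8 were higher over 9 libraries (median -0.87). Over 6 libraries 2 of 8 were higher there (median -0.28). The 10 spiny neuron markers summed to 7590, 6742 and 3319 CPM in WT replicates 1 to 3. Their sums were 6988, 6271 and 8227 CPM in cGAS KO and 7303, 5905 and 6724 CPM in STING KO. In STING KO against WT, 9 of 10 were higher over 9 libraries (median 0.17) and 3 of 10 over 6 (median -0.050). In cGAS KO against WT, 9 of 10 were higher over 9 libraries (median 0.26) and 8 of 10 over 6 (median 0.077). The part of cortical tissue and of spiny neurons in the EGR levels was not tested. Schwann cell markers, relevant to Egr2, summed to 4.34 to 8.49 CPM over all libraries, with Pmp2 at 0 to 1 counts. Of 5 T lymphocyte markers, relevant to Egr2 and Egr3, Cd3d was at 0 in every library and Cd3e, Cd3g and Cd8a at 0 to 2 counts, leaving Cd4 to make up their sum. Summed markers of oligodendrocytes, astrocytes, microglia and choroid plexus overlapped between WT and each knockout over 9 libraries. In STING KO against WT, 0 of 6 oligodendrocyte markers were positive over 9 libraries (median log2 fold change -0.18) and over 6 (-0.30). Of 5 astrocyte markers, 1 was positive over 9 libraries and 0 over 6. In cGAS KO against WT, 6 of 6 oligodendrocyte markers were positive over 9 libraries and 1 of 6 over 6. WT replicate 1 stood apart in its 5 choroid plexus markers, at 2717 CPM against at most 440 CPM elsewhere. Over 6 libraries WT was at 2717 and 115 CPM and STING KO at 77.9 and 59.3 CPM, with 5 of 5 markers lower. Endothelial markers summed to 256.5 to 269.4 CPM in WT, 233.5 to 290.4 CPM in cGAS KO and 218 to 251 CPM in STING KO. The STING KO sums were all below WT, but the single markers were divided. Of the 5, 3 had a lower and 2 a higher estimate in STING KO than in WT over 9 libraries. The part of these cell types in the member levels was not tested.

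Egr1 lies on the same chromosome as Sting1, 869 kb away, so the genes between them were counted. Of 14 tested genes in that interval, 6 were positive and 8 negative in the log2 ratio of STING KO to WT, with a median of -0.026 and a range of -0.62 to 0.73. None was called, and none had a log2 fold change above that of Egr1, while 2.27% of all genes tested had. In cGAS KO against WT the same 14 genes had a median of -0.013, again with 6 positive and 8 negative. None was above Egr1, while 7.05% of all genes tested were. In STING KO against cGAS KO 4 were positive and 10 negative, and 3 of the 14 were above Egr1, up to 0.97. Of all genes tested, 12.6% were above Egr1 there. Egr1 was chosen with its STING KO level known, so nothing is read from these counts. Any effect of the edited region on Egr1 was not tested.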

How the data were processed

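RNA of 9 striatum libraries was counted per Ensembl gene by the authors, and the deposited files hold raw whole-number counts, 1 file per sample. The submitters' processing notes name HISAT2, featureCounts and mm10. Versions, annotation, strand use and multiply mapped reads: not given in the sources used here. Of 54532 IDs, 54495 matched GENCODE M21 (GRCm38), the source of symbols, coordinates and merged exon lengths.

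Counts were fitted with edgeR 4.0.16 (R 4.3.3; quasi-likelihood F test, TMM factors, filterByExpr, 9 libraries in 1 fit, Benjamini-Hochberg over 17821 genes, threshold 0.05). SEs come from the fold change and F statistic. Log2 CPM for likeness used a prior count of 2. Alternatives were DESeq2 1.42.0 without a count filter, limma-voom (limma 3.58.1), other factors, no filter, fewer libraries and a replicate block.

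The members and lists were chosen with earlier results of these data known. Lists name, where none was called, the 2 members with the highest CPM per kb; the 6 members, Fos and Arc are named throughout, and likeness names 3 genes each. Some items so chosen are not reported here. The target list was written from general knowledge. The fit was tested on simulated counts. No 2 libraries of a group agreed within sampling noise (chi-square over genes). Library totals of 14129021 to 21286775 counts set the precision, and floors cover counting error only.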

Additional observations from a re-analysis of the deposited data

How the results depend on the processing

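All 4 EGR genes kept a positive log2 fold change in each comparison under all 17 alternatives, and no alternative called a member. Leaving out 1 library at a time, Egr2 in STING KO against WT ranged from 1.84 to 2.79 and Egr4 from 1.23 to 2.25. Estimates that moved by over 1.5 times included, in cGAS KO against WT, Egr1 (0.30 without WT replicate 3, 0.74 without WT replicate 1) and Egr4 (0.33 and 1.36 without the same libraries), and Egr2 at 0.83 without cGAS KO replicate 3 (up to 1.89 without WT replicate 1). Nab2 ranged from 0.30 (without WT replicate 3) to 1.22 (without WT replicate 1) in STING KO against WT. In STING KO against cGAS KO, Nab2 ranged from 0.016 (without STING KO replicate 1) to 0.87 (without cGAS KO replicate 1), Egr1 from 0.26 to 0.69, Egr2 from 0.56 to 1.35 and Egr4 from 0.57 to 1.34, their lowest values without STING KO replicate 3 for Egr1 and replicate 1 for Egr2 and Egr4. Nab1 had no stable sign: in STING KO against WT it ranged from -0.19 to 0.13 without 1 library and kept its sign in 12 of 17 alternatives. In cGAS KO against WT Nab1 ranged from -0.034 to 0.14 and Nab2 from -0.17 to 0.87 without 1 library, Nab2 turning negative without WT replicate 3 (-0.046) or cGAS KO replicate 1 (-0.17), and Nab1 without cGAS KO replicate 2 (-0.034). Nab1 was also at -0.0062 there over the 6 libraries without low complexity. In STING KO against cGAS KO Nab1 ranged from -0.26 to 0.050 without 1 library, turning positive without cGAS KO replicate 2 (0.047), STING KO replicate 1 (0.0026) or STING KO replicate 3 (0.050). The cause was not tested.

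Counts of called genes went from 0 to 10 (DESeq2 without a count filter, which changes tool and filter together), 4 (edgeR with no count filter) and 4 (6 libraries) in STING KO against WT, to 1 (the same DESeq2 fit) in cGAS KO against WT, and to 8 (DESeq2), 4 (edgeR with no count filter) and 3 (6 libraries) in STING KO against cGAS KO. They stayed at 0 without any 1 library. With the replicate block, 0 genes were called in each comparison. Deviations from group means of same-numbered libraries correlated at -0.447 to 0.502, over 0.1 in 4 of 9 pairs, and 3 of 9 libraries correlated best with their own number, so the numbers are not taken to pair the libraries. Shallow counts limit Egr2 most, at 61 counts in WT replicate 3.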
